A study of Mus musculus with 29 samples.

Results

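The comparison described here was between astrocytes of the mouse cerebral cortex transduced with retroviruses for both Neurog2 and Hmgb2 and astrocytes transduced with a control virus, all grown with bFGF as the single added growth factor. It comprised 6 of the 29 RNA-seq libraries of the series, 3 with Neurog2 + Hmgb2 and 3 controls, which were chosen by their labels. Of 25239 genes in the table, 15719 had a mean value of at least 1 over all libraries and were tested, and 9520 were left out. The gene closest above that minimum was C130074G19Rik (a mean of 1.00009) and the gene closest below it was Cntnap3 (0.999524).

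All cells came from wild-type C57BL/6J mice at postnatal day 5 to 6. Tissue of the cortex was dissociated and expanded for 10 days with 10 ng/ml bFGF in a medium that also held serum, flasks were shaken to remove oligodendrocyte precursors, and the cells were replated and transduced. In the Neurog2 + Hmgb2 cells 1 virus carried Neurog2 with dsRED and another carried Hmgb2 with GFP, each driven by the ubiquitous CAG promoter, whereas the control virus carried the reporter alone. Such viruses enter the genome of dividing cells, so a transduced population is a mixture of cells with different numbers of insertions. The cells stayed in astrocyte medium and were sorted by their fluorescence 48 h after transduction. The other bFGF groups used below were cells with the Neurog2 virus (4 libraries) or the Hmgb2 virus (4 libraries). A separate culture with 10 ng/ml EGF and 10 ng/ml bFGF had 3 libraries with Neurog2 + Hmgb2 and 5 controls. The labels name grey matter of the cortex as the source and the methods name white matter. They do not say whether the replicates were separate cultures, so p-values below measure the spread between these libraries, which may be technical in part.

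Neurog2 is a proneural transcription factor of the basic helix-loop-helix (bHLH) family. In the embryonic cortex such factors pair with E proteins, bind E-boxes in DNA, switch on a cascade of further bHLH factors such as the Neurod family, and induce Notch ligands, which hold neighbouring cells back from differentiating. Hmgb2 belongs to the high mobility group box proteins, which bind and bend DNA with little sequence preference and are abundant in proliferating progenitors. Forced expression of Neurog2 in cultured astrocytes is a widely used way to convert them into induced neurons, and the question of this comparison is which genes had responded early to both factors in cells grown without EGF.

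Values are regularized logarithms of counts (rlog), a log2 scale on which the differences of genes with few reads are shrunken, so that a fold change read from it understates the change of such genes. The depth of single libraries is unknown here, and no counting interval could be given. Differences are means of Neurog2 + Hmgb2 cells minus means of control cells with their standard errors (SE), and adjusted p-values are those of limma with the Benjamini-Hochberg correction over all 15719 genes. Genes were counted where the fold change was above 2 and the adjusted p below 0.05, and a member of a gene list was called at an adjusted p below 0.05 with any fold.

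Both transduced genes were far above their controls in every library. Neurog2 (ENSMUSG00000027967.8, chromosome 3 of GRCm38, 127633135 to 127635631) had rlog values of 14.11, 12.47 and 13.50 in the Neurog2 + Hmgb2 cells, against 8.22, 8.18 and 7.86 in the control cells. Its difference was 5.28 ± 0.42, or 38.7-fold (adjusted p = 4.7e-08, limma). Hmgb2 (ENSMUSG00000054717.7, chromosome 8, 57511907 to 57515999) had 12.27, 12.22 and 12.81 in the Neurog2 + Hmgb2 cells, against 9.34, 9.91 and 9.44 in the control cells. This was a difference of 2.87 ± 0.29, or 7.33-fold (adjusted p = 3.9e-06). Reads from the viral cDNA count towards both genes, so the values do not separate viral from endogenous transcripts. Among the Neurog2 + Hmgb2 libraries, replicate 1 had the most Neurog2 RNA and replicate 2 the least.

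Beside the transduced genes, those that were higher in the Neurog2 + Hmgb2 cells included neuronal transcription factors, Notch ligands, neuronal RNA-binding proteins, microtubule and migration proteins and parts of synapses, and those that were lower included some of the contractile cytoskeleton and the extracellular matrix. In all, 115 genes were higher (0.732% of those tested) and 41 were lower (0.261%). With no fold threshold, 162 were higher (1.03%) and 71 lower (0.452%), or 1.48% in either direction. These shares were called as list members were, and are the background for each count of a gene list below. The median difference over all tested genes was 0.01, and 51.2% of them had a difference above 0. The groups did not overlap for 114 of the 115 higher and 41 of the 41 lower genes, where they did not overlap for 22.3% of all genes tested. The counts rested on a spread estimated over all 29 libraries: with the 6 libraries alone, 18 genes were higher and 4 lower. Single libraries also moved the counts. Without Neurog2 + Hmgb2 replicates 1, 2 and 3 there were 189, 58 and 50 higher and 21, 13 and 15 lower genes, and without the controls in turn (1, 2, 3) there were 61, 54 and 97 higher and 10, 8 and 49 lower genes. Among the higher genes 37 passed both thresholds whichever library was left out, and among the lower genes 3 did.

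The genes with the largest rises that held in each of these fits were led, after Neurog2, by genes of migrating and differentiating neurons. Cntn2, which encodes the axonal adhesion protein contactin 2 (TAG-1), had 7.42, 9.75 and 9.75 in the Neurog2 + Hmgb2 cells, against 5.45, 4.83 and 5.26 in the control cells. Rbfox3 encodes NeuN, the splicing regulator used as a marker of mature neurons, and had 6.20, 8.01 and 7.54 in the Neurog2 + Hmgb2 cells, against 3.32, 3.61 and 3.50 in the control cells. Cbfa2t3 encodes a corepressor of the ETO family and had 7.79, 7.22 and 7.71, against 3.64, 4.19 and 3.61. These were differences of 3.79 ± 0.65, 3.78 ± 0.53 and 3.76 ± 0.30 for Cntn2, Rbfox3 and Cbfa2t3 (adjusted p = 0.0030, 5.2e-04 and 4.7e-08, limma), and no Neurog2 + Hmgb2 library fell within the range of the controls. Replicate 1 was the lowest of its group for Cntn2 and Rbfox3 and the highest for Cbfa2t3. The other genes of the 15 largest rises were Dcx, Ppp1r14a, Nhlh1, Neurod1, Sv2b, Chodl, Elavl2, Prmt8, Hmgb2, Sstr2 and Atp2b2. Ppp1r14a, an inhibitor of myosin phosphatase in smooth muscle, rose by 3.33 ± 0.36 (adjusted p = 9.3e-06). Chodl, a membrane protein with a lectin domain that marks fast motor neurons, rose by 2.95 ± 0.52, and Prmt8, an arginine methyltransferase of neurons, by 2.89 ± 0.45 (adjusted p = 0.0032 and 0.0014).

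**Figure D1:**
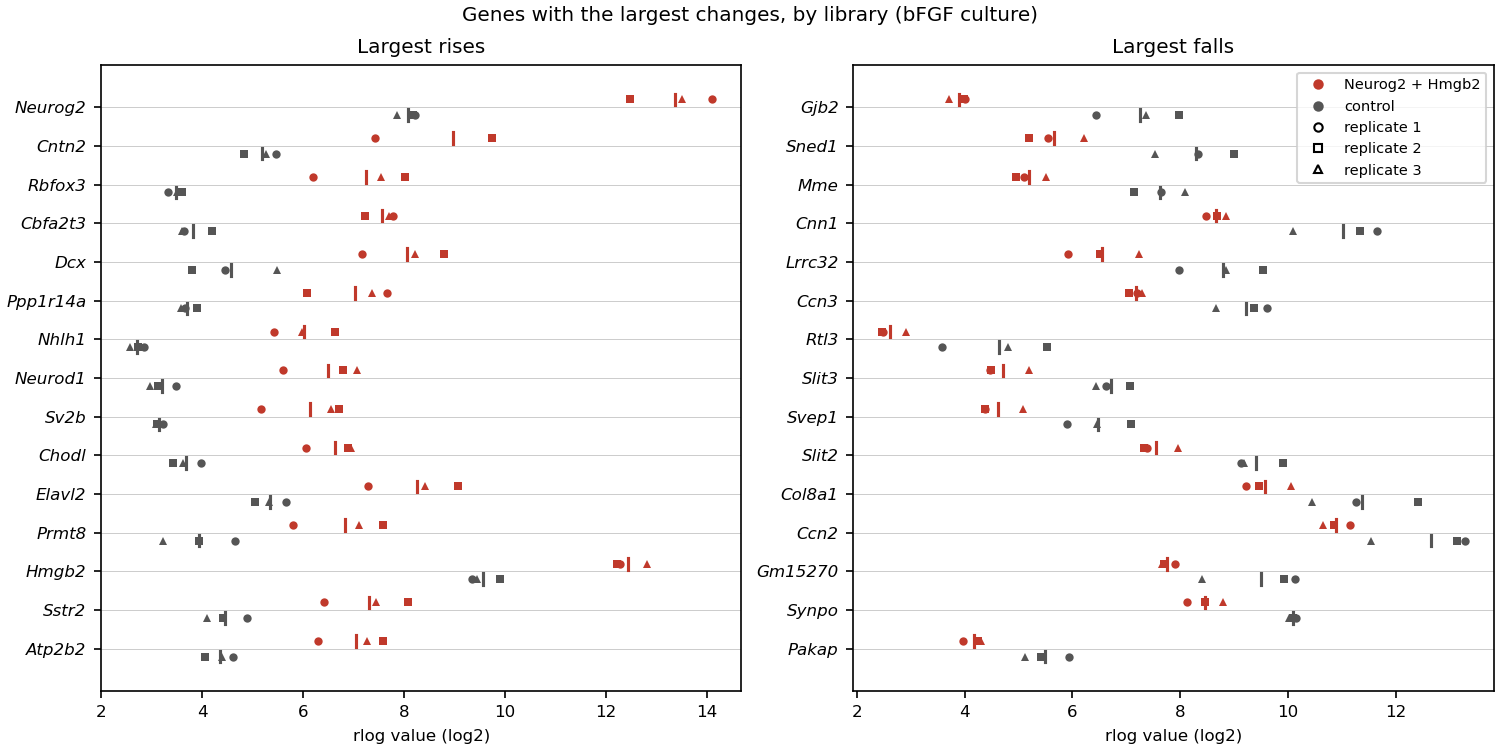
rlog values (log2) of the 15 largest rises and the 15 largest falls, with the Neurog2 + Hmgb2 libraries in red above the control libraries in grey for each gene; symbols mark the replicate and short bars the group means. Neurog2 stood at 12.47 to 14.11 in the Neurog2 + Hmgb2 cells and at 7.86 to 8.22 in the control cells, and Gjb2 at 3.72 to 4.01 in the Neurog2 + Hmgb2 cells and at 6.44 to 7.98 in the control cells.

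The promoters of the 15 largest rises were read for the E-box CAGATG, a form favoured by Neurog and Neurod proteins, since these are the genes that rose most beside the virus that brings such a protein. All 15 genes matched RefSeq promoters (GRCm38.p6), 28 in all, each defined as 250 bases before to 50 bases after a gene start. Neurog2 and Hmgb2 are among the 15. Viral cDNA under the CAG promoter counts towards both, so their own promoters need not bear on their rise. Promoters of 4 of the genes held CAGATG or its reverse complement CATCTG. They are shown 5′ to 3′ on the strand of the gene, in lower case with the match in capitals: Nhlh1 on chromosome 1 (172057547 to 172057846, minus strand), Ppp1r14a on chromosome 7 (29289070 to 29289369, plus strand), Cbfa2t3 on chromosome 8 (122699060 to 122699359, minus strand) and Chodl on chromosome 16 (78930698 to 78930997, plus strand).
Nhlh1: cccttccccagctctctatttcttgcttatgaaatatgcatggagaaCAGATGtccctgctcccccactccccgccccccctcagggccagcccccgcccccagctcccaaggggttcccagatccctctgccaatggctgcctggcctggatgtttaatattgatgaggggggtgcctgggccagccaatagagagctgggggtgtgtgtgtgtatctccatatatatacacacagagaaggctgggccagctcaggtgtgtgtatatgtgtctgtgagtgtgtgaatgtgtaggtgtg
Ppp1r14a: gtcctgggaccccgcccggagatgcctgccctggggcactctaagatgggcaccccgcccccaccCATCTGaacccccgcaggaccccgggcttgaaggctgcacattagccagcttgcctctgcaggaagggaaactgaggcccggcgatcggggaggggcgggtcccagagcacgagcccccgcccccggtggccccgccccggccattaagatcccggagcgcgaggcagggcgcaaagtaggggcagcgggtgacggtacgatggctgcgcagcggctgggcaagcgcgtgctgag
Cbfa2t3: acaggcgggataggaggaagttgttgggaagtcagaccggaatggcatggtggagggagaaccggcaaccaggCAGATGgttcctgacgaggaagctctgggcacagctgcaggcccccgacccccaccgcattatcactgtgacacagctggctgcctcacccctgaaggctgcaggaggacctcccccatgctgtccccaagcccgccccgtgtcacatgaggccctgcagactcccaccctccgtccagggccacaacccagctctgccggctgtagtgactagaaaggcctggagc
Chodl: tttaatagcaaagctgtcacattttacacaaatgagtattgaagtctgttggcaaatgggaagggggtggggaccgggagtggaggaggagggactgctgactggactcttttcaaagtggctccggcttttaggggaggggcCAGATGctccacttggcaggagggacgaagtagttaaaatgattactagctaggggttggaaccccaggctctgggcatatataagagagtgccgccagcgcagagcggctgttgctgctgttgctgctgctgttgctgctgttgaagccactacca
Each match lay upstream of the start. CAGATG on either strand was in 19.2% of the 125 promoters of the 88 higher genes with a RefSeq entry, in 10.4% of the 48 promoters of 29 lower genes and in 17.2% of all 32851 promoters. The palindromic E-box CAGCTG, searched in the same windows, was in 27.2% of the promoters of higher genes, in 29.2% of those of lower genes and in 16.3% of all. These are matches of letters in short windows, no binding was measured in the table used here, and several promoters of a gene overlap. The shares count promoters, while matches among the largest rises were counted by gene, so these cannot be set side by side.

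Of 14 tested members of the proneural bHLH cascade, 5 rose and none fell, where 1.03% of all genes rose, with a median difference of 0.39. One of the 5 was the transduced Neurog2 itself. Neurod1, a direct target of Neurog2 in the embryonic cortex, had 5.61, 6.79 and 7.06 in the Neurog2 + Hmgb2 cells, against 3.49, 3.13 and 2.97 in the control cells (3.29 ± 0.47, adjusted p = 5.2e-04). Nhlh1, a bHLH factor of newborn neurons, had 5.42, 6.64 and 5.97, against 2.85, 2.72 and 2.57 in the control cells (3.29 ± 0.51, adjusted p = 0.0011). Neurod2, a factor of later glutamatergic neurons, had 4.20, 4.72 and 4.90, against 2.32, 2.34 and 2.24 in the control cells (2.30 ± 0.33, adjusted p = 5.2e-04). All 3 held without any single library, and their groups did not overlap. Neurod6, a marker of cortical pyramidal neurons, was barely detected (1.23 to 2.06 in the Neurog2 + Hmgb2 cells and 0.92 to 0.94 in the control cells). Its difference of 0.75 ± 0.19 (adjusted p = 0.049) passed without Neurog2 + Hmgb2 replicate 1 (0.0094), and not without replicates 2 and 3 (0.174 and 0.231) or control replicates 1, 2 and 3 (0.155, 0.147 and 0.104).

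Neurod4, another target of Neurog2, was not uniform among the libraries. It had 2.03, 5.31 and 4.29 in the Neurog2 + Hmgb2 cells, against 1.98, 2.0 and 1.89 in the control cells, so that replicate 1 stood at the level of the controls. The difference of 1.92 ± 0.71 did not pass (adjusted p = 0.19) and did so without that replicate (0.032). Neurog1, the closest relative of Neurog2, was below the minimum for testing, as was Tbr1, a factor of cortical glutamatergic neurons.

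Among 32 tested factors of neuronal differentiation 6 rose and none fell (median 0.66). Sox11, a factor of immature neurons, had 9.79, 10.50 and 10.27 in the Neurog2 + Hmgb2 cells, against 8.52, 8.19 and 8.27 in the control cells (1.86 ± 0.31, adjusted p = 0.0022). Mycl, a member of the Myc family, had 7.62, 8.35 and 8.21 in the Neurog2 + Hmgb2 cells, against 6.31, 6.72 and 6.44 in the control cells (1.57 ± 0.24, adjusted p = 9.6e-04). Both held whichever library was left out. The number of these factors that rose was 12, 3 and 3 without Neurog2 + Hmgb2 replicates 1, 2 and 3 and 4, 3 and 6 on leaving out the controls in turn (1, 2, 3). Prox1, a homeobox factor of granule cells and early neurons, had 7.24, 9.0 and 8.52, against 6.56, 5.99 and 6.95 in the control cells. Its groups did not overlap, but the difference of 1.75 ± 0.46 missed the threshold (adjusted p = 0.056) and passed it without Neurog2 + Hmgb2 replicate 1 (0.013).

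The corepressors and chromatin factors of neurogenesis had 6 of 24 members that rose and none that fell (median 0.35). They included Cbfa2t3, described above, and Kdm1a, the lysine demethylase LSD1, which works with the corepressors of the CoREST family. Kdm1a changed little but evenly, with 10.40, 10.69 and 10.57 in the Neurog2 + Hmgb2 cells, against 10.05, 9.71 and 10.12 in the control cells (0.59 ± 0.10, adjusted p = 0.0027), and held without any single library. Insm1, a zinc finger factor of basal progenitors, had 6.03, 8.53 and 8.22, against 5.17, 4.41 and 4.37 in the control cells (2.94 ± 0.75, adjusted p = 0.046). Rcor2, a subunit of the CoREST complex, had 7.94, 8.72 and 9.10, against 5.86, 6.26 and 7.61 in the control cells (2.01 ± 0.44, adjusted p = 0.017). The Insm1 call passed without Neurog2 + Hmgb2 replicate 1 (0.012) and was lost without replicate 2 or 3 (0.22 and 0.17) or any control (0.096, 0.17 and 0.11). That of Rcor2 was lost without Neurog2 + Hmgb2 replicate 2 or 3 (0.082 and 0.11) or control replicate 1 or 2 (0.14 and 0.098). The count of 6 became 8, 3 and 3 without Neurog2 + Hmgb2 replicates 1, 2 and 3 and 3, 2 and 5 on leaving out the controls in turn (1, 2, 3). Rest, the repressor of neuronal genes, was at 9.72, 8.52 and 9.0 in the Neurog2 + Hmgb2 cells and at 9.10, 9.03 and 9.43 in the control cells.

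Genes that mark the transmitter of a neuron were mostly not called. Of 20 tested glutamatergic and GABAergic fate genes 3 rose, Neurod2, Neurod6 and Sp9, and none fell, with a median of −0.02. Sp9, a zinc finger factor of striatal interneurons and projection neurons, rose by 1.32 ± 0.30 (adjusted p = 0.021), and its call was lost without Neurog2 + Hmgb2 replicate 2 or 3 (0.17 and 0.084) or any control (0.051, 0.094 and 0.070). The list had 4 called members without Neurog2 + Hmgb2 replicate 1 and 1 without any other library. The vesicular glutamate transporter Slc17a6 was at 0.93 to 0.97 in the Neurog2 + Hmgb2 cells and at 0.77 to 1.05 in the control cells. Gad1, which makes GABA, was at 4.78, 4.87 and 3.95 in the Neurog2 + Hmgb2 cells and at 4.32, 3.16 and 8.01 in the control cells, where control replicate 3 stood far above the others.

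Genes of the Notch pathway were called among its ligands and modulators and among its targets. Of 17 ligands and modulators 5 rose and none fell (median 0.25), and 3 of the 5 encode Delta-like proteins. Dll1 had 8.27, 8.35 and 8.47 in the Neurog2 + Hmgb2 cells, against 5.87, 5.56 and 6.88 in the control cells. Dll4 had 4.88, 6.60 and 5.62 in the Neurog2 + Hmgb2 cells, against 3.31, 3.46 and 3.46 in the control cells. Dll3, a Delta-like protein that acts within the cell that makes it, had 6.98, 9.56 and 8.76 in the Neurog2 + Hmgb2 cells, against 5.30, 4.92 and 5.29 in the control cells. The differences were 2.26 ± 0.38 for Dll1, 2.29 ± 0.40 for Dll4 and 3.26 ± 0.61 for Dll3 (adjusted p = 0.0027, 0.0034 and 0.0055). In none of these did the groups overlap, and the call of Dll3 was lost without Neurog2 + Hmgb2 replicate 2 (0.056). Mfng, a glycosyltransferase that tunes the response to ligands, rose by 2.52 ± 0.44 (adjusted p = 0.0032). Hes6, which opposes Hes1 and promotes differentiation, was among the most even rises, with 10.77, 10.93 and 10.81 in the Neurog2 + Hmgb2 cells, against 8.54, 8.50 and 8.88 in the control cells (2.20 ± 0.26, adjusted p = 3.2e-05).

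Of 15 tested receptors and targets of Notch, Heyl rose and none fell (median −0.04). Heyl, a bHLH repressor, had 8.29, 5.63 and 6.40 in the Neurog2 + Hmgb2 cells, against 3.34, 3.50 and 3.30 in the control cells (3.40 ± 0.69, adjusted p = 0.011). Replicate 1, which had the most Neurog2, was highest here, and the call was lost without it (0.058) or without control replicate 1 or 2 (both 0.051). Hes5, the target of Notch in neural stem cells, was at 7.05, 10.34 and 8.19 in the Neurog2 + Hmgb2 cells and at 5.34, 5.38 and 6.63 in the control cells, and its difference of 2.75 ± 0.95 did not pass (adjusted p = 0.16). Hes1 was at 8.48, 8.92 and 8.39 in the Neurog2 + Hmgb2 cells and at 7.94, 8.64 and 6.99 in the control cells, and Notch1 at 10.44, 11.16 and 11.20 in the Neurog2 + Hmgb2 cells and at 11.49, 10.44 and 10.87 in the control cells. The groups overlapped for both.

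Neuronal RNA-binding and splicing proteins had one of the higher shares of called genes, with 9 of 29 members that rose, none that fell and a median of 0.75. Elavl2, a Hu protein that stabilizes neuronal transcripts, had 7.28, 9.06 and 8.42 in the Neurog2 + Hmgb2 cells, against 5.67, 5.05 and 5.32 in the control cells (2.91 ± 0.50, adjusted p = 0.0027), and with Rbfox3 it held without any single library. Elavl4, another Hu protein, rose by 2.49 ± 0.60 (adjusted p = 0.035), with 6.72, 8.96 and 8.13 in the Neurog2 + Hmgb2 cells, against 5.17, 4.98 and 6.18 in the control cells. Celf3, a splicing factor of the nervous system, rose by 2.10 ± 0.50 (adjusted p = 0.032). Elavl4 was lost without Neurog2 + Hmgb2 replicate 2 or 3 (0.205 and 0.136) or control replicate 1 or 2 (0.151 and 0.162), and Celf3 without Neurog2 + Hmgb2 replicate 2 or 3 (0.18 and 0.15) or any control (0.099, 0.11 and 0.084). The list had 9, 3 and 2 called members without Neurog2 + Hmgb2 replicates 1, 2 and 3 and 3, 2 and 5 on leaving out the controls in turn (1, 2, 3). Ptbp1, the splicing repressor that is switched off in neurons, was at 11.32, 10.23 and 10.02 in the Neurog2 + Hmgb2 cells and at 10.45, 10.83 and 10.33 in the control cells. Its neuronal relative Ptbp2 was at 8.84, 9.55 and 9.17 in the Neurog2 + Hmgb2 cells and at 8.70, 8.48 and 8.88 in the control cells (0.50 ± 0.18, adjusted p = 0.17).

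Of 42 tested genes of the neuronal cytoskeleton and migration 10 rose and none fell (median 0.83). Dcx, which encodes doublecortin, the microtubule protein of migrating neuroblasts, had 7.17, 8.80 and 8.21 in the Neurog2 + Hmgb2 cells, against 4.44, 3.79 and 5.48 in the control cells (3.49 ± 0.63, adjusted p = 0.0042). Lzts1, which drives the detachment of newborn neurons from the ventricular surface, had 7.19, 8.16 and 8.15, against 5.60, 5.04 and 4.89 in the control cells (2.66 ± 0.33, adjusted p = 6.0e-05). Tubb3, the neuronal β-tubulin, had 10.66, 11.17 and 10.57, against 9.44, 9.05 and 8.38 in the control cells (1.85 ± 0.35, adjusted p = 0.0073). Dcx and Lzts1 held without any single library, and the call of Tubb3 was lost without Neurog2 + Hmgb2 replicate 2 (0.056). Rnd2, a small GTPase of radial migration and a target of Neurog2 in the cortex, rose by 2.13 ± 0.50 (adjusted p = 0.0275), which was lost without Neurog2 + Hmgb2 replicate 2 or 3 (0.19 and 0.12) or any control (0.13, 0.10 and 0.051). The list had 12, 2 and 4 called members without Neurog2 + Hmgb2 replicates 1, 2 and 3 and 4, 3 and 6 on leaving out the controls in turn (1, 2, 3). Map2, a dendritic microtubule protein, was at 8.70, 10.85 and 10.18 in the Neurog2 + Hmgb2 cells and at 9.36, 8.94 and 9.23 in the control cells, so that replicate 1 was below every control. Lrp8, a receptor for reelin, had 9.61, 10.91 and 10.65 in the Neurog2 + Hmgb2 cells, against 9.42, 8.63 and 8.48 in the control cells (1.55 ± 0.40, adjusted p = 0.0502), just above the threshold.

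Genes of axon guidance and adhesion moved in both directions, with 9 of 58 that rose, 3 that fell and a median of 0.00. Beside Cntn2, Cxcr4, the chemokine receptor of migrating interneurons and Cajal-Retzius cells, held without any single library, with 5.84, 6.42 and 6.33 in the Neurog2 + Hmgb2 cells, against 4.63, 4.57 and 4.29 in the control cells (1.70 ± 0.29, adjusted p = 0.0027). The Slit genes, which encode repellents of growing axons, went opposite ways. Slit1 had 6.46, 8.58 and 8.20 in the Neurog2 + Hmgb2 cells, against 5.12, 4.91 and 5.05 in the control cells (2.72 ± 0.54, adjusted p = 0.0092). Slit2 had 7.38, 7.32 and 7.97, against 9.12, 9.91 and 9.19 in the control cells, and Slit3 4.48, 4.49 and 5.20, against 6.62, 7.06 and 6.45 in the control cells. Slit2 fell by 1.85 ± 0.42 and Slit3 fell by 1.99 ± 0.50 on the log2 scale (adjusted p = 0.024 and 0.043). For none of the 3 did the groups overlap. The call of Slit1 was lost without Neurog2 + Hmgb2 replicate 2 or 3 (0.078 and 0.060) or control replicate 2 (0.052), that of Slit2 without Neurog2 + Hmgb2 replicate 1 or 2 (0.060 and 0.12) or control replicate 1 or 2 (0.057 and 0.15), and that of Slit3 without any one of the 6 (0.066 to 0.17). Plxnb2, a semaphorin receptor, fell by 1.00 ± 0.26 (adjusted p = 0.049), and was lost without any one of the 6 (0.060 to 0.25). The list had 11, 4 and 2 members that rose without Neurog2 + Hmgb2 replicates 1, 2 and 3 and 3, 2 and 8 on leaving out the controls in turn (1, 2, 3). Dscaml1, an adhesion protein of the immunoglobulin family, overlapped, with 6.52, 8.59 and 8.25 in the Neurog2 + Hmgb2 cells, against 5.43, 4.88 and 6.78 in the control cells (2.08 ± 0.58, adjusted p = 0.072).

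**Figure D2:**
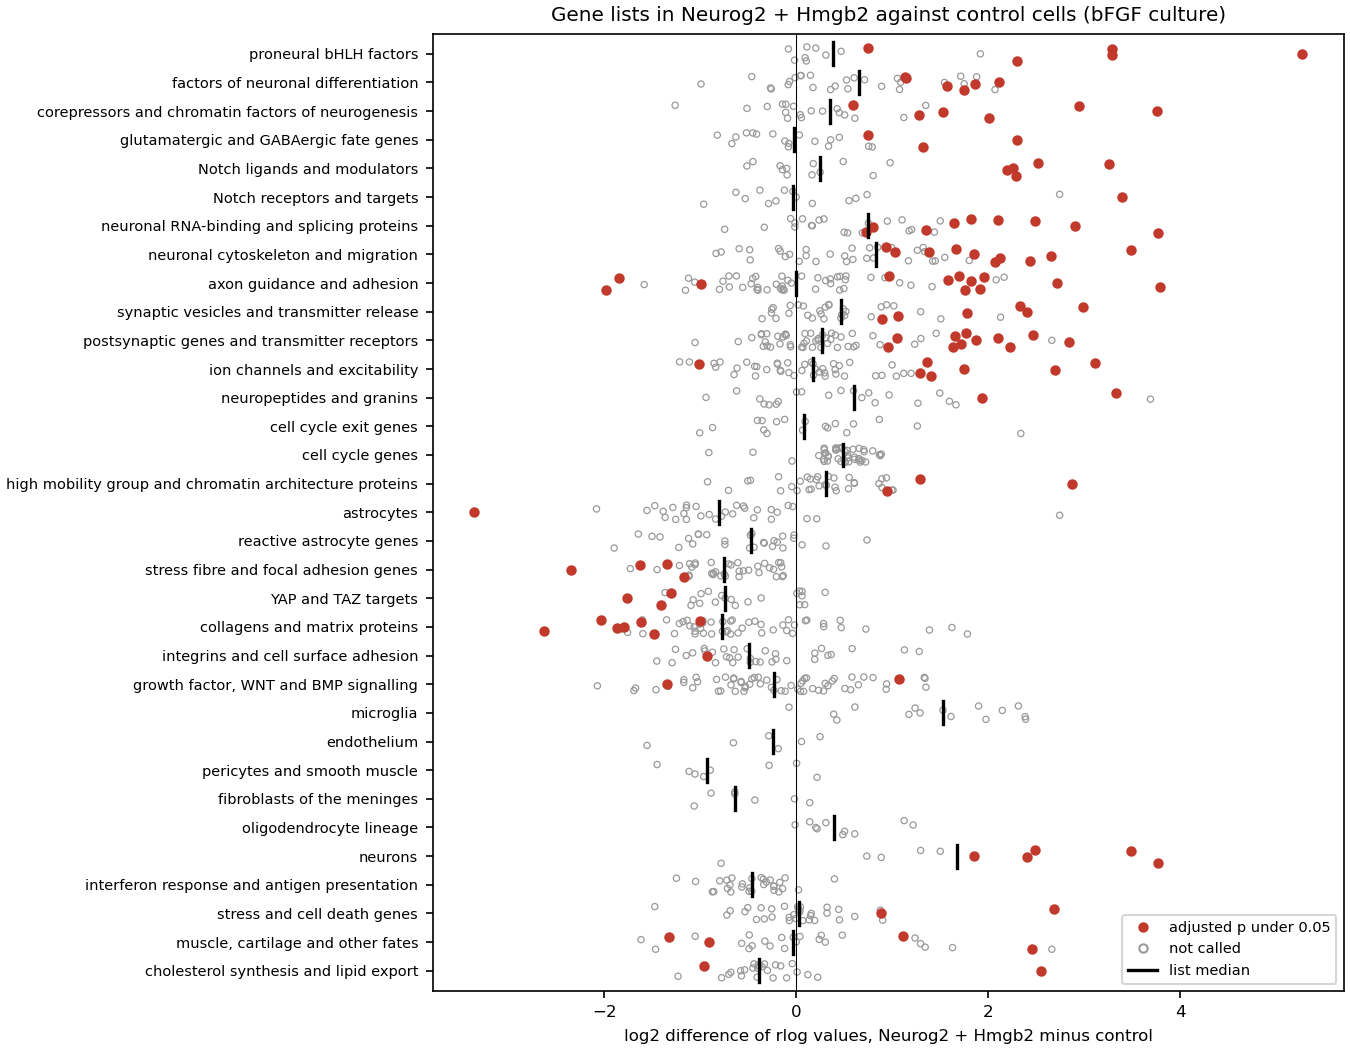
Differences in rlog value (log2) between Neurog2 + Hmgb2 and control cells for the tested members of 33 gene lists, filled in red where the adjusted p was below 0.05, with the list median as a black bar. All called members of the neuronal RNA-binding and cytoskeleton lists lay above 0, and no member of the stress fibre list did.

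Synaptic genes rose on both sides of the synapse. Of 35 tested genes of synaptic vesicles and transmitter release 6 rose and none fell (median 0.46). Sv2b, a vesicle glycoprotein, had 5.16, 6.70 and 6.55 in the Neurog2 + Hmgb2 cells, against 3.23, 3.11 and 3.09 in the control cells (2.99 ± 0.43, adjusted p = 5.2e-04). The complexins Cplx1 and Cplx2, which clamp the fusion machinery, rose by 2.33 ± 0.42 and 1.78 ± 0.27 (adjusted p = 0.0041 and 8.6e-04). These 3 held without any single library. Snap25, a SNARE protein of the vesicle membrane's target, rose by 2.41 ± 0.49 and Bsn, the active zone protein bassoon, by 1.05 ± 0.24 (adjusted p = 0.011 and 0.024). Snap25 was lost without Neurog2 + Hmgb2 replicate 2 or 3 (0.085 and 0.060) or control replicate 1 or 2 (0.058 and 0.062), and Bsn without Neurog2 + Hmgb2 replicate 2 or 3 (0.10 and 0.15) or any control (0.12, 0.052 and 0.078). Synaptophysin (Syp) was at 5.94, 7.56 and 6.73 in the Neurog2 + Hmgb2 cells and at 5.46, 4.94 and 5.94 in the control cells. Synaptotagmin 1 (Syt1) was at 3.85, 5.06 and 5.03 in the Neurog2 + Hmgb2 cells and at 3.69, 3.66 and 3.93 in the control cells. Both overlapped through replicate 1 and did not pass (adjusted p = 0.14 and 0.17).

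Postsynaptic genes and transmitter receptors had 11 of 58 members that rose and none that fell (median 0.26). Sstr2, a somatostatin receptor of newborn neurons, had 6.40, 8.08 and 7.44 in the Neurog2 + Hmgb2 cells, against 4.88, 4.41 and 4.09 in the control cells. The cannabinoid receptor gene Cnr1 had 6.75, 8.21 and 8.06, against 5.39, 4.76 and 5.48 in the control cells. Chrna3, a nicotinic receptor subunit of autonomic neurons, had 3.82, 4.74 and 4.98, against 2.62, 2.65 and 2.63 in the control cells. Their differences of 2.85 ± 0.52, 2.47 ± 0.45 and 1.88 ± 0.33 (adjusted p = 0.0045, 0.0042 and 0.0031) held without any single library, and replicate 1 was the lowest of its group in all 3. The list had 12, 5 and 3 called members without Neurog2 + Hmgb2 replicates 1, 2 and 3 and 3, 3 and 9 on leaving out the controls in turn (1, 2, 3).

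Of 48 tested genes of ion channels and excitability 6 rose and 1 fell (median 0.18). Atp2b2, a calcium pump of the plasma membrane, had 6.30, 7.59 and 7.27 in the Neurog2 + Hmgb2 cells, against 4.62, 4.06 and 4.39 in the control cells (2.70 ± 0.46, adjusted p = 0.0027) and held without any single library. Cacnb2, a calcium channel subunit, fell by 1.01 ± 0.25 (adjusted p = 0.037) and was lost without any one of the 6 libraries (0.072 to 0.20). The list had 7, 1 and 1 members that rose without Neurog2 + Hmgb2 replicates 1, 2 and 3 and 2, 2 and 4 on leaving out the controls in turn (1, 2, 3). Of 23 tested neuropeptide and granin genes 2 rose and none fell (median 0.60). Sct, the hormone secretin, had 8.80, 6.44 and 7.28 in the Neurog2 + Hmgb2 cells, against 4.11, 4.24 and 4.15 in the control cells (3.34 ± 0.74, adjusted p = 0.021), and Chga, chromogranin A of secretory granules, rose by 1.94 ± 0.46 (adjusted p = 0.029). Sct was lost without Neurog2 + Hmgb2 replicate 1 or 3 (0.090 and 0.064) or any control (0.082, 0.082 and 0.053), and Chga without Neurog2 + Hmgb2 replicate 2 or 3 (0.19 and 0.10) or control replicate 2 or 3 (0.17 and 0.085). The number called there was 4, 2 and 0 without Neurog2 + Hmgb2 replicates 1, 2 and 3 and 1, 0 and 1 on leaving out the controls in turn (1, 2, 3).

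The marker list of neurons, which shares members with the lists above, had 5 of 10 genes that rose (Rbfox3, Dcx, Elavl4, Snap25 and Tubb3), none that fell and a median of 1.67. Of the 10 differences 9 were above 0 and 1 was below, that of Stmn2 (−0.78, not called). The mean level of the list was 6.96, 8.27 and 7.80 in the Neurog2 + Hmgb2 cells, against 5.90, 5.75 and 6.09 in the control cells, so that replicate 1 lay about midway between the highest control and the other 2. The count was 7, 2 and 3 without Neurog2 + Hmgb2 replicates 1, 2 and 3 and 3, 3 and 5 on leaving out the controls in turn (1, 2, 3). In bulk samples, fewer cells with a gene on and less RNA per cell cannot be told apart.

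Of the 41 lower genes 4 were in the list of stress fibres and focal adhesions and 7 in that of collagens and matrix proteins. All 39 stress fibre and focal adhesion genes had a negative difference (median −0.75, where the median of all genes was 0.01), 4 of them fell and none rose, against a background of 0.452% of all genes that fell. Synpo, the actin-bundling protein synaptopodin, had 8.12, 8.46 and 8.80 in the Neurog2 + Hmgb2 cells, against 10.15, 10.09 and 10.02 in the control cells. It fell by 1.63 ± 0.30 on the log2 scale, or 3.10-fold (adjusted p = 0.0045), and held without any single library. Cnn1, the smooth muscle protein calponin 1, had 8.47, 8.69 and 8.85, against 11.65, 11.32 and 10.10 in the control cells, and fell by 2.35 ± 0.46 (adjusted p = 0.0082), which was lost without control replicate 1 or 2 (0.068 and 0.056). The others were Lims2, an adaptor of integrin adhesions that fell by 1.35 ± 0.33, and Palld, the actin scaffold palladin, which fell by 1.18 ± 0.27 (adjusted p = 0.036 and 0.023). Lims2 was lost without Neurog2 + Hmgb2 replicate 1 or 3 (0.14 and 0.15) or control replicate 1 or 2 (0.13 and 0.18), and Palld without Neurog2 + Hmgb2 replicate 2 or 3 (0.16 and 0.060) or control replicate 1 or 2 (0.15 and 0.12). The list had 3, 3 and 2 called members without Neurog2 + Hmgb2 replicates 1, 2 and 3 and 1, 1 and 7 on leaving out the controls in turn (1, 2, 3). Its mean level was 10.68, 9.92 and 10.33 in the Neurog2 + Hmgb2 cells, against 11.37, 11.42 and 10.51 in the control cells, so that control replicate 3 lay within the range of the Neurog2 + Hmgb2 libraries.

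Of 23 targets of YAP and TAZ, the coactivators that respond to cell tension, 3 fell and none rose (median −0.74). Ccn2, connective tissue growth factor, had 11.15, 10.85 and 10.64 in the Neurog2 + Hmgb2 cells, against 13.27, 13.13 and 11.53 in the control cells. F3, tissue factor, had 9.99, 10.26 and 9.72 in the Neurog2 + Hmgb2 cells, against 11.62, 11.73 and 10.86 in the control cells. Ccn2 fell by 1.77 ± 0.45, F3 fell by 1.41 ± 0.28, and Amot, the junction protein angiomotin, fell by 1.31 ± 0.33 (adjusted p = 0.048, 0.010 and 0.047). Control replicate 3 was the lowest control for each. No single call held throughout: Ccn2 and Amot passed without control replicate 3 alone (0.011 and 0.014, against 0.0575 to 0.263 without any other library), and F3 was lost without Neurog2 + Hmgb2 replicate 3 (0.071) or control replicate 1 or 2 (0.066 and 0.084). The list had 1, 1 and 0 called members without Neurog2 + Hmgb2 replicates 1, 2 and 3 and 0, 0 and 3 on leaving out the controls in turn (1, 2, 3). Ccn1, a further target, was at 12.85, 12.54 and 12.62 in the Neurog2 + Hmgb2 cells and at 13.80, 13.85 and 12.58 in the control cells and did not pass (adjusted p = 0.25).

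Of 57 collagens and matrix proteins 7 fell and none rose (median −0.77). Ccn3, a matricellular protein, was one of the 3 falls that held without any single library, with 7.20, 7.04 and 7.29 in the Neurog2 + Hmgb2 cells, against 9.61, 9.37 and 8.66 in the control cells. It fell by 2.03 ± 0.32 on the log2 scale, or 4.10-fold (adjusted p = 0.0016). Sned1, a matrix glycoprotein, fell by 2.63 ± 0.64, Col8a1, a network-forming collagen, by 1.79 ± 0.44, and Svep1, a large adhesive matrix protein, fell by 1.87 ± 0.46 (adjusted p = 0.036, 0.037 and 0.037). Sned1 passed without control replicate 3 (0.033) and not without any other library (0.066 to 0.17), Col8a1 likewise (0.014, against 0.060 to 0.22), and Svep1 was lost without any one of the 6 (0.051 to 0.18). The number of the list that fell was 3, 1 and 3 without Neurog2 + Hmgb2 replicates 1, 2 and 3 and 1, 1 and 8 on leaving out the controls in turn (1, 2, 3). Col1a1, the main collagen of fibroblasts, was at 13.41, 13.51 and 15.20 in the Neurog2 + Hmgb2 cells and at 14.42, 15.78 and 15.11 in the control cells (adjusted p = 0.49).

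The third fall that held without any single library was Pakap, a fusion locus of paralemmin 2 and an anchoring protein of protein kinase A. It had 3.97, 4.25 and 4.30 in the Neurog2 + Hmgb2 cells, against 5.94, 5.43 and 5.13 in the control cells, and fell by 1.33 ± 0.24 on the log2 scale (adjusted p = 0.0042). Further large falls were those of Mme, the peptidase neprilysin (2.43 ± 0.57 on the log2 scale, adjusted p = 0.028), Lrrc32, the docking receptor of latent TGF-β (2.23 ± 0.54, 0.033), and the transcripts of Rtl3 and Gm15270 (2.01 ± 0.47 and 1.74 ± 0.43, 0.027 and 0.043). In these 4 the groups did not overlap. Mme was lost without any one of the 6 libraries (0.060 to 0.13). Lrrc32 passed without Neurog2 + Hmgb2 replicate 3 (0.048) or control replicate 1 (0.035) and not without the others (0.080 to 0.18), Rtl3 without control replicate 1 (0.012, against 0.062 to 0.18), and Gm15270 without control replicate 3 (0.0099, against 0.060 to 0.25).

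Of the 32 genes listed as astrocyte markers 29 had a negative difference (median −0.81), Gjb2 fell and none rose. Among the members not called were Gfap, Aqp4, Slc1a3, Slc1a2, Aldoc, Gja1, S100b, Sox9, Aldh1l1, Glul and Fgfr3. Which cells of these bulk samples had less Gjb2 was not tested. Gjb2, the gap junction protein connexin 26, had 4.01, 3.98 and 3.72 in the Neurog2 + Hmgb2 cells, against 6.44, 7.98 and 7.37 in the control cells, the largest fall of all called genes (3.36 ± 0.67 on the log2 scale, adjusted p = 0.0095). Its call was lost without Neurog2 + Hmgb2 replicate 3 (0.051) or control replicate 2 (0.079). The glutamate transporter Slc1a3 was at 10.50, 11.81 and 11.29 in the Neurog2 + Hmgb2 cells and at 12.62, 11.92 and 12.48 in the control cells (−1.15 ± 0.65, adjusted p = 0.39). The water channel Aqp4 was at 10.24, 11.92 and 11.74 in the Neurog2 + Hmgb2 cells and at 12.81, 12.07 and 12.89 in the control cells (−1.29 ± 0.80, adjusted p = 0.43). Gfap, the intermediate filament of astrocytes, was at 13.77, 15.78 and 15.29 in the Neurog2 + Hmgb2 cells and at 15.64, 15.04 and 14.76 in the control cells, so that both groups still held this defining marker at a high level. Of 28 reactive astrocyte genes none was called (median −0.47, 3 at an unadjusted p below 0.05).

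Cell cycle genes were not called in either direction, with 0 of 44 by limma and 5 at an unadjusted p below 0.05, although 41 of 44 differences were positive (median 0.49). Their mean level was 9.94, 9.07 and 8.82 in the Neurog2 + Hmgb2 cells, against 8.83, 9.34 and 8.30 in the control cells, and without Neurog2 + Hmgb2 replicate 1 the median difference was 0.14. Of 18 genes of cell cycle exit 0 were called, and 4 had an unadjusted p below 0.05. Gadd45g, which restrains growth and follows proneural factors, had 11.11, 12.01 and 11.80 in the Neurog2 + Hmgb2 cells, against 10.74, 11.04 and 10.55 in the control cells (0.87 ± 0.29, adjusted p = 0.15). Cdkn1c, the cyclin-dependent kinase inhibitor p57, had 8.69, 9.89 and 8.51 in the Neurog2 + Hmgb2 cells, against 6.04, 7.09 and 6.94 in the control cells (2.34 ± 0.74, adjusted p = 0.13), where the groups did not overlap.

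Among 35 tested high mobility group and chromatin architecture genes 3 rose and none fell (median 0.31), 1 of which was Hmgb2 itself. H2az1, the histone variant H2A.Z, had 11.53, 11.05 and 11.06 in the Neurog2 + Hmgb2 cells, against 9.52, 10.27 and 9.96 in the control cells (1.29 ± 0.26, adjusted p = 0.010), and was lost without control replicate 1 (0.082). Cbx3, a heterochromatin protein, had 8.33, 8.13 and 8.26, against 7.28, 7.35 and 7.26 in the control cells (0.95 ± 0.24, adjusted p = 0.043), and was lost without any one of the 6 libraries (0.095 to 0.15). The relatives Hmgb1 and Hmgb3 had differences of 0.86 ± 0.41 and 0.89 ± 0.30 that did not pass (adjusted p = 0.30 and 0.14). The list had 2, 2 and 2 called members without Neurog2 + Hmgb2 replicates 1, 2 and 3 and 1, 2 and 2 on leaving out the controls in turn (1, 2, 3).

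Called shares of the remaining lists stand against 1.48% of all genes. They were 3.17% for growth factor, WNT and BMP signalling, 2.94% for integrins and surface adhesion and 7.69% for cholesterol and lipid export. For stress and cell death the share was 5.88%, and for muscle, cartilage and other fates 14.8%. Of 63 genes of growth factor, WNT and BMP signalling Id2, an inhibitor of bHLH factors, rose by 1.07 ± 0.23 and the WNT receptor Fzd7 fell by 1.35 ± 0.34 (adjusted p = 0.016 and 0.045). Of 34 integrins and surface adhesion genes Nectin2 fell by 0.93 ± 0.19 (adjusted p = 0.010). Of 26 genes of cholesterol synthesis and lipid export Abcg1, a sterol exporter, rose by 2.55 ± 0.55 and Fads3, a desaturase, fell by 0.96 ± 0.24 (adjusted p = 0.016 and 0.046). Trp53i11, a gene induced by p53, was the exception in size and constancy among 34 stress and cell death genes. It had 10.11, 10.84 and 10.11 in the Neurog2 + Hmgb2 cells, against 7.67, 7.50 and 7.84 in the control cells (2.68 ± 0.31, adjusted p = 3.2e-05) and held without any single library, and the nuclease gene Dffb rose by 0.88 ± 0.20 (adjusted p = 0.021). Of 27 genes of muscle, cartilage and other fates Sprr1a and Ctrb1 rose and Scx and Speg fell. Sprr1a, an envelope protein of epithelia that is also induced in injured neurons, had 5.67, 5.87 and 5.12 in the Neurog2 + Hmgb2 cells, against 3.18, 3.31 and 2.82 in the control cells (2.45 ± 0.43, adjusted p = 0.0031) and held without any single library. Ctrb1 rose by 1.12 ± 0.25, Scx fell by 1.33 ± 0.29 and Speg fell by 0.91 ± 0.19 (adjusted p = 0.023, 0.019 and 0.013). Beyond Trp53i11 and Sprr1a, no call of this paragraph held in every fit: the highest adjusted p on leaving out 1 library was 0.0845 for Id2 (control replicate 2), 0.21 for Fzd7 (Neurog2 + Hmgb2 replicate 2), 0.054 for Nectin2 (control replicate 2), 0.11 for Abcg1 (control replicate 1), 0.22 for Fads3 (control replicate 1), 0.096 for Dffb (control replicate 1), 0.15 for Ctrb1 (Neurog2 + Hmgb2 replicate 3), 0.12 for Scx (control replicate 2) and 0.096 for Speg (control replicate 1).

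Markers of other cell types moved between the groups as well. The 15 microglia markers had 0 calls by limma and 0 at an unadjusted p below 0.05, but 14 of 15 differences were positive (median 1.53), and their mean level was 7.11, 7.85 and 7.20 in the Neurog2 + Hmgb2 cells, against 5.74, 6.04 and 6.12 in the control cells, without overlap. C1qa, a complement gene of microglia, was at 7.81, 9.36 and 8.09 in the Neurog2 + Hmgb2 cells and at 6.29, 6.33 and 5.48 in the control cells. Within the bFGF culture the same mean ranged between 5.20 and 9.01 in cells with the Neurog2 virus alone and between 5.57 and 7.28 in cells with the Hmgb2 virus alone. The part of such cells in the results above was not tested. The 10 markers of the oligodendrocyte lineage had a mean of 6.85, 9.19 and 8.07 in the Neurog2 + Hmgb2 cells and 7.33, 7.46 and 7.88 in the control cells. The 6 tested endothelial markers had 5.55, 4.20 and 4.60 in the Neurog2 + Hmgb2 cells and 5.20, 5.66 and 4.69 in the control cells. The means of 8 pericyte and smooth muscle markers were 7.30, 6.99 and 7.50 in the Neurog2 + Hmgb2 cells and 8.12, 8.16 and 7.60 in the control cells, without overlap. That list shares Acta2 (−1.45) and Tagln (−1.06) with the stress fibre list, so its lower mean holds some of the same values. The means of 7 markers of meningeal fibroblasts were 10.18, 9.97 and 11.18 in the Neurog2 + Hmgb2 cells and 9.66, 11.34 and 11.85 in the control cells. None of the oligodendrocyte, endothelial, pericyte or fibroblast markers was called by limma, and 1, 1, 3 and 0 of them had an unadjusted p below 0.05. Of 30 genes of interferon response and antigen presentation 0 were called and 3 had an unadjusted p below 0.05 (median −0.46).

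Replicate 1 of the Neurog2 + Hmgb2 cells stood apart from the other 2. It had the most Neurog2 RNA, yet it was the lowest of the 3 libraries for 85 of the 115 higher genes (73.9%), where it was the lowest for 46.3% of all genes tested. The median rise of the 115 genes over the control mean was 1.44 in replicate 1, 2.25 in replicate 2 and 2.10 in replicate 3, and the median change of the 41 lower genes was −1.41, −1.52 and −1.31 in the same order. Replicate 1 also had the highest mean of cell cycle genes and the lowest mean of astrocyte markers of all 6 libraries (8.76, 9.90 and 9.46 in the Neurog2 + Hmgb2 cells, against 10.30, 9.95 and 10.19 in the control cells), and the highest Chrna1, the muscle nicotinic receptor subunit (9.37, 3.76 and 5.42, against 3.65, 3.68 and 3.23). Replicate 1 of the Neurog2 + Hmgb2 cells and control replicate 2 lay at the same end of the main axis of deviations from group means. Their scores were 0.36 and 0.24, and the axis held 45.4% of these deviations over the series. Replicate 1 of the bFGF cells with Neurog2 alone had the same score (0.36) and also a low mean of astrocyte markers (8.90). The part of this axis in the differences was not tested beyond leaving out each library.

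**Figure D3:**
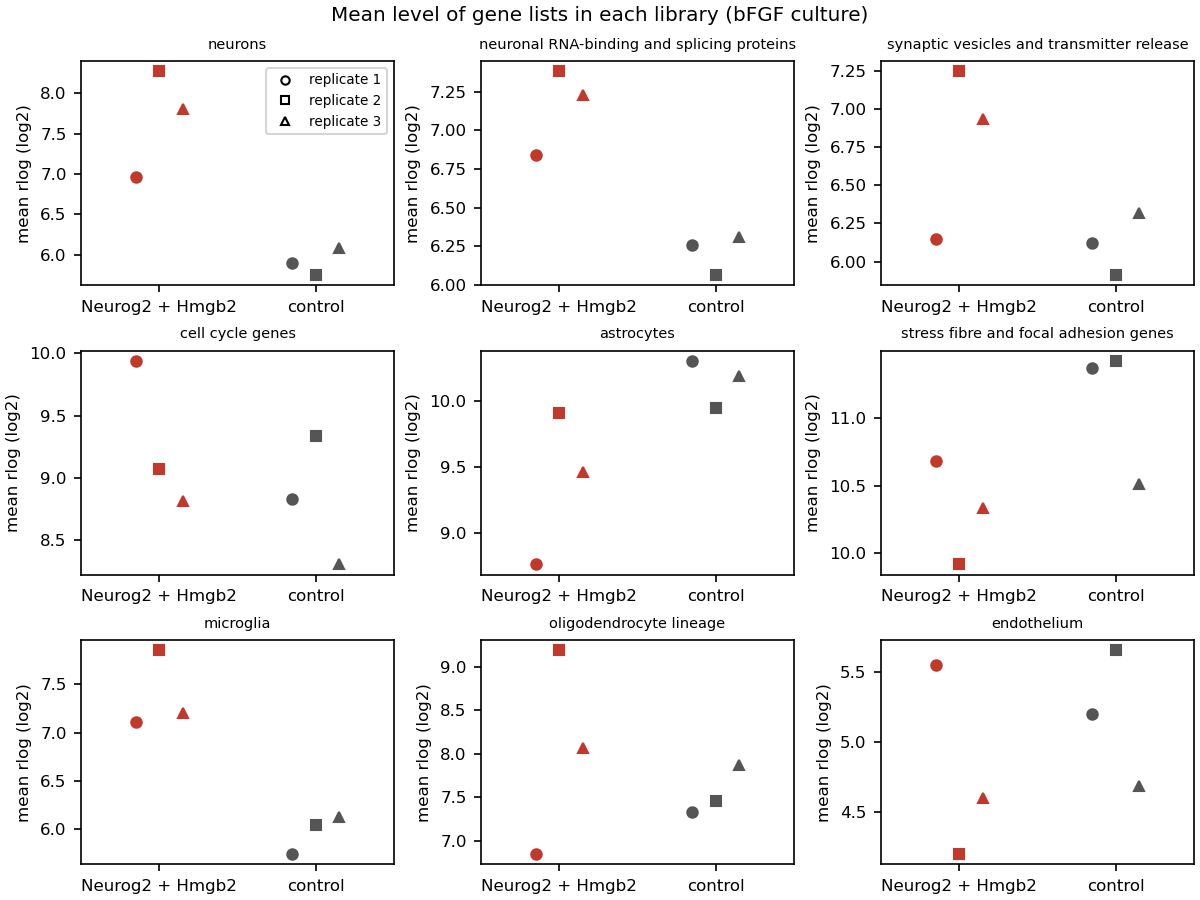
Mean rlog value (log2) of 9 gene lists in each of the 3 Neurog2 + Hmgb2 libraries (left, red) and the 3 control libraries (right, grey), with symbols for the replicates. The mean of the neuronal markers was 6.96 to 8.27 in the Neurog2 + Hmgb2 cells and 5.75 to 6.09 in the control cells, and the mean of the microglia markers 7.11 to 7.85 in the Neurog2 + Hmgb2 cells and 5.74 to 6.12 in the control cells.

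The response was next set against that of the EGF + bFGF culture, in which conversion by Neurog2 is usually studied and which has its own control libraries, to ask whether cells grown with bFGF alone responded differently to both factors. In the EGF + bFGF culture 153 genes were higher and 31 lower with Neurog2 + Hmgb2 than in its control cells (0.973% and 0.197% of those tested). All 115 genes that were higher in the bFGF culture had a positive difference there, and 97 of them rose at an adjusted p below 0.05, where 1.46% of all genes did. All 41 lower genes had a negative difference and 14 fell, where 0.522% of all genes did. The genes past both thresholds in both cultures were 93 that were higher (80.9% of the bFGF list and 60.8% of the EGF + bFGF list) and 13 that were lower (31.7% and 41.9%). No library was shared between these comparisons, but both used the spread of each gene estimated over all libraries. Single libraries moved the number of higher genes called in both cultures, which was 57, 49, 55 and 45 without bFGF control replicates 1 and 2 and bFGF Neurog2 + Hmgb2 replicates 2 and 3, and 50 without EGF + bFGF Neurog2 + Hmgb2 replicate 3. The 14 lower genes in common became 1, 4 and 21 without bFGF control replicates 1, 2 and 3 and 7, 8 and 6 without bFGF Neurog2 + Hmgb2 replicates 1, 2 and 3. They became 8 and 4 without EGF + bFGF Neurog2 + Hmgb2 replicates 2 and 3, and 8, 9, 9 and 6 without EGF + bFGF control replicates 1, 3, 4 and 5.

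The sizes were alike for the genes that rose, with a median of 1.86 in the bFGF culture and 1.70 in the EGF + bFGF culture, and smaller with EGF for those that fell, with −1.35 in the bFGF culture and −0.99 in the EGF + bFGF culture. The 115 and 41 genes were chosen on the bFGF values, which favours larger values there. Over the whole list of collagens and matrix proteins the median was −0.77 in the bFGF culture and 0.00 in the EGF + bFGF culture. For the stress fibre and focal adhesion list it was −0.75 and −0.61, and for the YAP and TAZ targets −0.74 and −0.46. The meningeal fibroblast markers had −0.64 and 0.94. The list medians were not compared by a test. Neurod1 had a difference of 3.29 in the bFGF culture and 3.40 in the EGF + bFGF culture, Cbfa2t3 3.76 and 3.63, Hes6 2.20 and 2.02, and Dll1 2.26 and 2.04, all called in both (adjusted p = 5.5e-05, 8.3e-09, 1.7e-05 and 0.0013 in the EGF + bFGF culture). Sprr1a had 2.45 in the bFGF culture and 1.23 in the EGF + bFGF culture (adjusted p = 0.11 in the EGF + bFGF culture). Among the falls, Cnn1, Ccn2 and Ccn3 also fell in the EGF + bFGF culture (−2.03, −1.99 and −1.19, adjusted p = 0.0071, 0.0072 and 0.031), whereas Synpo, Pakap and Gjb2 had −0.84, −0.46 and −1.63 there and did not pass (adjusted p = 0.11, 0.34 and 0.19).

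The test of the difference itself, an interaction of virus and culture, passed the threshold for no gene. By limma 0 genes were called (lowest adjusted p = 0.9998), and 243 genes (1.55%) had an unadjusted p below 0.05. With no difference at all, a share of about 0.05 would be expected on average. The test was thus cautious, and 0 calls do not show that the responses were equal. The lowest p-values, none past the threshold, included those of Crybb1 and H3c11, whose response in the bFGF culture minus that in the EGF + bFGF culture was 0.89 ± 0.23 and 0.46 ± 0.14. Both are genes of low level, with control means of 1.73 and 1.33 in the bFGF culture. For genes of the response the same difference was −0.11 ± 0.63 for Neurod1, 0.54 ± 0.72 for Rbfox3, −0.85 ± 0.44 for Ccn3 and −0.79 ± 0.40 for Synpo.

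**Figure D4:**
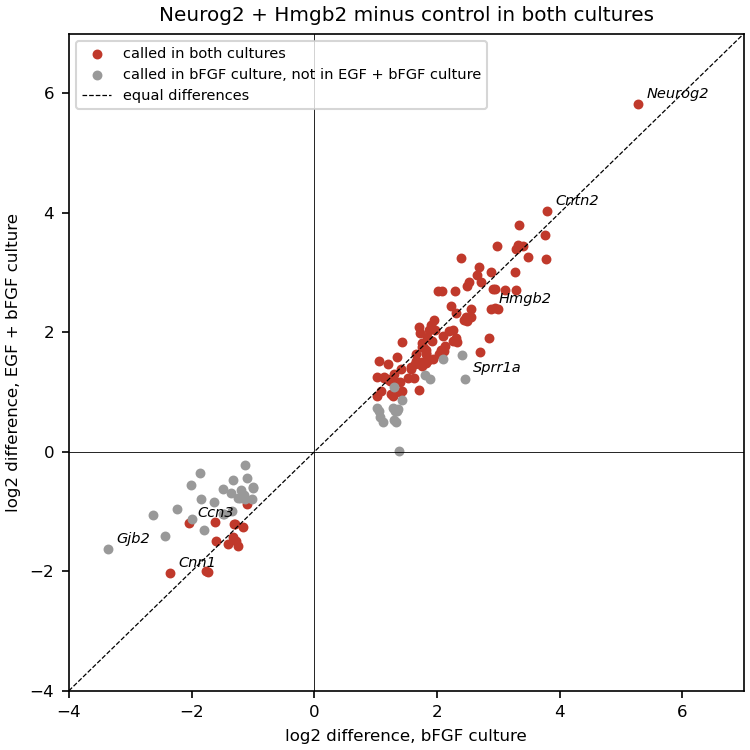
Difference in rlog value (log2) between Neurog2 + Hmgb2 and control cells in the bFGF culture (horizontal) and in the EGF + bFGF culture (vertical) for the 115 higher and 41 lower genes of the bFGF culture, in red where the adjusted p was below 0.05 in the EGF + bFGF culture too. All points lay in the quadrants of equal sign, and 97 of the higher and 14 of the lower genes are red.

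The addition of Hmgb2 to Neurog2 was examined against the 4 libraries with the Neurog2 virus alone. By limma 1 gene differed (0.00636% of those tested), which was Hmgb2 itself: it had 12.27, 12.22 and 12.81 in the Neurog2 + Hmgb2 cells, against 10.65, 10.09, 9.90 and 10.49 in the Neurog2 cells (2.15 ± 0.27, adjusted p = 7.1e-04). There were 346 genes (2.20%) with an unadjusted p below 0.05. That share too was below the 0.05 expected on average with no difference, so the single call does not show that other genes were equal. With the 7 compared libraries alone 0 genes were called, and with array weights 32 were. Neurog2 itself had 14.11, 12.47 and 13.50 in the Neurog2 + Hmgb2 cells, against 12.81, 13.13, 12.36 and 12.56 in the Neurog2 cells, which overlap (0.65 ± 0.39, adjusted p = 0.998). Compared with the same bFGF controls, 47 genes were higher and 1 lower with Neurog2 alone. Those controls are shared with the comparison above, so the values are given side by side without a test. Neurod1 had a difference of 3.29 with both viruses and 2.10 with Neurog2 alone, Cntn2 3.79 and 2.86, Dcx 3.49 and 2.48, Cbfa2t3 3.76 and 3.28, Dll4 2.29 and 2.67, Lzts1 2.66 and 2.70, Ccn3 −2.03 and −1.28, and Synpo −1.63 and −0.80. Over the 115 higher genes the medians were 1.86 with both viruses, 1.39 with Neurog2 alone and 0.22 with Hmgb2 alone, and over the 41 lower genes −1.35, −1.09 and −0.24. These genes were chosen on the cells with both viruses.

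The genes Prox1, Dscaml1, Lrp8 and Shf were examined because the study discusses them, and none passed the threshold between the Neurog2 + Hmgb2 and Neurog2 cells. The differences were 0.48 ± 0.43 for Prox1, 0.24 ± 0.54 for Dscaml1, 0.46 ± 0.37 for Lrp8 and 0.37 ± 0.44 for Shf (adjusted p = 0.998 for each), and the groups overlapped. Prox1 ranged between 7.24 and 9.0 in the Neurog2 + Hmgb2 cells and between 7.0 and 8.83 in the Neurog2 cells. Shf, an adaptor protein of receptor signalling, had 7.19, 8.04 and 7.61 in the Neurog2 + Hmgb2 cells, against 5.77, 6.48 and 5.93 in the control cells, a difference of 1.55 ± 0.47 (adjusted p = 0.11). Differences of these sizes between cells with both viruses and with Neurog2 alone are within the spread of 3 and 4 libraries.

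The response to both viruses was last compared with the sum of the responses to each virus alone. By limma 0 genes departed from that sum (lowest adjusted p = 0.9999), and 67 genes (0.426%) had an unadjusted p below 0.05. With no departure a share of about 0.05 would be expected on average. The test was thus cautious, and 0 calls do not show that the responses add up. The lowest p-values, none past the threshold, were those of 2510002D24Rik (−0.68 ± 0.23), Fcgrt, the neonatal Fc receptor (−1.03 ± 0.36), and Tcte2 (0.56 ± 0.20). Cells with the Hmgb2 virus alone were not free of Neurog2 RNA, which bears on this sum: they had rlog values of 9.35, 11.02, 10.80 and 9.86 for Neurog2, against 8.22, 8.18 and 7.86 in the control cells (2.17, adjusted p = 0.096), and all 4 lay above every control. Hmgb2 in those cells was at 11.48 to 11.87.

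**Figure D5:**
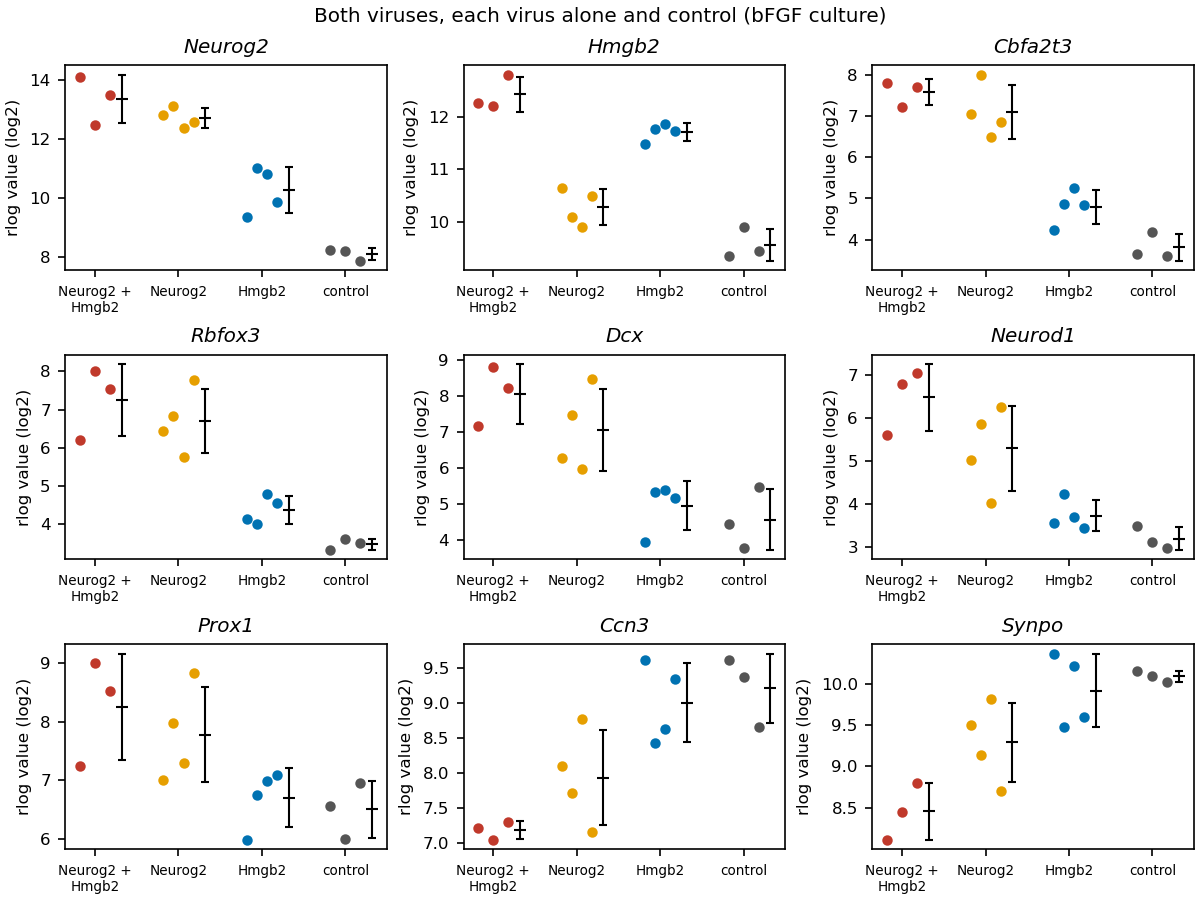
rlog values (log2) of 9 genes in the 4 bFGF groups, in the order Neurog2 + Hmgb2, Neurog2, Hmgb2 and control; points are libraries, and the bar beside them is the mean with 1 SD. Hmgb2 was at 12.22 to 12.81 in the Neurog2 + Hmgb2 cells and at 9.90 to 10.65 in the Neurog2 cells, whereas Rbfox3, Dcx, Neurod1 and Prox1 overlapped between these groups.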

How the data were processed

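RNA of sorted cells was amplified with the SMART-Seq v4 kit, which keeps no strand information, and sequenced as paired ends. Reads were aligned to mm10 with STAR and counted per gene with HTSeq (0.9.1). The authors then converted the counts to rlog values on a log2 scale with DESeq2 (1.36.0 in the submitters' processing notes, an older release in the methods), and the deposited table holds these values for 25239 genes and 29 libraries. It holds no counts, so the depth per library is unknown here and no count model was run.

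Genes with a mean rlog of at least 1 were tested with limma (3.58.1, R 4.3.3). Means of the 8 groups were fitted over all 29 libraries (21 residual degrees of freedom) with an intensity trend, and p-values were adjusted for the number of genes (Benjamini-Hochberg). The thresholds were an adjusted p of 0.05 and a fold change of 2. The alternatives were no filter or a minimum of 4, median centring, quantile normalization, the compared groups alone, array weights, no trend, a robust trend, a replicate block, no fold threshold or 1.5-fold, and leaving out each library. The fit was tested on simulated data. The count of genes called in both cultures was recomputed without each library as an alternative chosen after seeing the data.

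The libraries and gene lists were chosen with earlier results of these data known, and with genes discussed in the study in view. Named genes were the transduced genes, the 15 largest rises and the 15 largest falls (those that passed without any single library first), up to 6 such members and 2 other called members of each list with a few uncalled members whose role the text needs, genes discussed in the study, and the genes with the lowest p of the other contrasts. Some genes that this rule takes are not reported here.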

Additional observations from a re-analysis of the deposited data

Results flagged for a closer look

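Dixon's ratio was computed for 8 genes and 4 list means in each of the 4 groups with 4 or 5 libraries, and 3 of the 48 ratios were above the critical value, where chance exceeds it in about 1 in 20. Hmgb2 in replicate 4 of the EGF + bFGF control cells had an rlog value of 9.57 (ratio 0.733). The mean of the astrocyte markers was 8.90 in replicate 1 of the bFGF cells with Neurog2 alone (ratio 0.892) and 8.75 in replicate 2 of the EGF + bFGF cells with Hmgb2 alone (ratio 0.864). None of these libraries belongs to the 6 of the main comparison, and groups of 3 were not examined in this way.

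Neurog2 RNA was above the control level in bFGF cells that carried the Hmgb2 virus alone. The difference was 2.17 on the log2 scale (adjusted p = 0.096, limma), and 4 of 4 libraries lay above every control. In the EGF + bFGF culture the cells with the Hmgb2 virus alone had Neurog2 values of 9.89 to 11.47, against 7.74 to 8.18 in the control cells. The source of these reads was not tested.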

How the results depend on the processing

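The main count of 115 higher genes became 18 with the compared groups alone and 512 with array weights, whose estimation stopped before it converged, and ranged between 50 and 189 on leaving out 1 library. The 41 lower genes became 18 without a filter, 4 with the compared groups alone, 263 with array weights, 71 with no fold threshold and 64 at 1.5-fold, and ranged between 8 and 49 on leaving out 1 library. The single gene that differed between Neurog2 + Hmgb2 and Neurog2 cells became 0 with the compared groups alone and 32 with array weights. Apart from the block within each culture given next, the other settings kept these counts within 1.5 times, the contrasts between cultures and against the sum had 0 calls in every setting run, and no result changed sign. Of 88 called genes taken by the rule for named genes, 75 missed the threshold with the compared groups alone, 24 without a filter, 0 with array weights and 20 to 49 on leaving out 1 library. Apart from fewer libraries in the fit, the cause was not tested. Without counts, the precision that depth gives to low genes is unknown.

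With the replicate number as a block 127 genes were higher and 51 lower, and with a block within each culture 153 were higher and 89 lower. Between the Neurog2 + Hmgb2 and control libraries the numbers did not line up. Deviations of same-numbered libraries of these groups correlated at −0.05, −0.50 and 0.23. Neurog2 + Hmgb2 replicate 1 correlated best with control replicate 2 (0.50). On the main axis of deviations, replicate 1 scored 0.36 with both viruses, 0.36 with Neurog2 alone, 0.25 with Hmgb2 alone and −0.04 in the bFGF controls. In these groups replicate 2 ranged between −0.23 and 0.24, and replicate 3 between −0.32 and −0.13. Whether same-numbered libraries shared a preparation was not tested.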
